A study of Mus musculus with 13 samples.

Results

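The late repertoires of rescued Treg cells, sampled 5 or 7 months after treatment, were compared with the early repertoires sampled at 1.5 or 3 months. Samples entered a pool by the time point in their titles, which gave 7 late and 6 early samples of 13 in all. By time point, 2 samples came from 1.5 months, 4 from 3 months, 2 from 5 months and 5 from 7 months. Only functional clonotypes were kept, those whose CDR3 translated without a stop codon or frameshift. They came to 78521 clonotype entries, 40090 in the early and 38431 in the late pool.

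All samples came from male C57BL/6 mice of the genotype Foxp3LSL/y Cd4creERT2, in which 4-hydroxytamoxifen was given once, at day 14 after birth. The mice were 8 weeks, 3.5 months, 5.5 months and 7.5 months old at the respective time points. Time after treatment and age therefore move together and cannot be told apart, and no untreated repertoire is analysed here. In the Foxp3LSL allele a floxed Thy1.1 reporter and STOP cassette silences Foxp3, so the cells begin as Treg "wannabes". The Cre-ERT2 fusion is expressed from Cd4, which is active in all CD4 T cells, and 1 dose of drug restores Foxp3 in a single cohort of cells. Rescued Treg cells were sorted as GFP+Thy1.1- TCRβ+CD4+ cells from pooled spleen and lymph nodes. The labels number the replicates but do not say that each is a separate mouse. An exact permutation p ranks the late-early difference among rearrangements of the pool labels over these samples. It takes the samples as independent, which would not hold if replicates shared a mouse.

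Treg cells are CD4 T cells that restrain other immune cells and that depend on the transcription factor Foxp3. Each T cell carries an antigen receptor whose α chain is made by joining 1 of many V (TRAV) segments to 1 of many J (TRAJ) segments on mouse chromosome 14. The junction, CDR3, contacts the antigen, and bases added there without a template make many junctions unique to a cell and its progeny. A clonotype is here a distinct set of V segment, J segment and CDR3 nucleotide sequence, and its share of counts stands for the size of a clone together with its TCRα mRNA per cell, which cannot be told apart.

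Depth differed between the pools and is given before the diversity results it may touch. Functional counts per sample ran from 553889 to 882170 in the early samples and from 477052 to 580706 in the late ones. Their means were 659607 ± 129466 (SD, n = 6) and 526152 ± 36376 (SD, n = 7), an exact permutation p of 0.00583. Non-functional clonotypes held 5.83% to 7.74% of counts, at means of 6.95% and 6.83% in the early and late samples. The clonotypes seen once, 578 to 1735 per early and 559 to 1405 per late sample, overlapped between the pools. Some libraries shared more CDR3s than others. By the Jaccard index, the CDR3 amino-acid sequences common to a pair of samples over all of theirs, the pair of 3 months replicate 4 with 5 months replicate 1 reached 15.04% and that of 3 months replicate 4 with 1.5 months replicate 1 reached 14.98%, and these pairs shared 707 and 776 nucleotide clonotypes. Without these 3 libraries the adjusted exact permutation p of the late-early difference was 0.223 for clonotype number and 0.129 for Shannon entropy and for the clonotypes holding 50% of counts, on 4 early and 6 late samples. The differences themselves were then -851.6 clonotypes, -0.45 bits and -236.4 clonotypes, against -1192, -0.51 and -285.0 in all samples. Removing from each sample the clonotypes with a copy at least 100 times larger in another library, 57 to 503 per sample, kept the calls of all 3 measures. It does not reach copies closer in size, so whether clonotypes were carried over between libraries was not settled. The invariant NKT chain held 0% to 0.0710% of functional counts, and the MAIT chain was found in 1 sample at 0.0142%. The libraries were made for TCRα chains from cells gated on TCRβ, so they do not measure γδ T cells.

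The late repertoires held fewer clonotypes, and their counts were spread over fewer of them. Clonotype number fell by 17.8%, Shannon entropy was lower by 0.51 bits, and the number of largest clonotypes that together hold 50% of counts fell by 33.7%. Each of these 3 passed an adjustment over the 9 diversity measures. The Gini coefficient, the inverse Simpson indices and the shares of the largest 1, 10 and 100 clonotypes did not. With samples blocked by replicate number, the adjusted exact permutation p of each of the 3 was 0.125, so none was called. The differences were then -1298 clonotypes, -0.43 bits and -251.7 clonotypes. The labels do not tie that number to shared animals or a shared day.

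Clonotype number was 7998 and 6497 at 1.5 months and 7109, 5710, 6119 and 6657 at 3 months. It was 5388 and 4828 at 5 months and 5067, 6354, 5625, 5040 and 6129 at 7 months. So 5 of 7 late samples lay below every early sample, and the other two lay inside the early range. The means were 6682 ± 801 (SD, n = 6) and 5490 ± 578 (SD, n = 7), with an exact permutation p of 0.0105 and an adjusted p of 0.0315. Drawn down to an equal depth of 477052 counts, they were 6392 ± 787 and 5405 ± 554, with an exact permutation p of 0.0198 and an adjusted p of 0.0594. The direction was kept at equal depth, but the call was not. Equal depth evens counts, not the number of cells sampled. Of the late-early difference of -1192 clonotypes in all samples, -288.6 lay in clonotypes below 0.001% of counts. The adjusted p, from exact permutation, also rose above 0.05, to between 0.0519 and 0.0682, when 1.5 months replicate 1 or 2, 3 months replicate 1 or 4, 5 months replicate 1 or 2, or 7 months replicate 1, 3 or 4 was left out. Without both 1.5-month samples it was 0.145 and without both 5-month samples 0.117.

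Shannon entropy weighs every clonotype by its share and rises with both their number and their evenness. It was 11.85 and 11.65 bits at 1.5 months and 11.32, 11.44, 11.57 and 11.33 bits at 3 months. It was 10.84 and 11.17 bits at 5 months and 11.30, 11.40, 11.11, 10.74 and 10.57 bits at 7 months. All late samples but 7 months replicate 2 lay below every early one. The means were 11.53 ± 0.20 (SD, n = 6) and 11.02 ± 0.31 (SD, n = 7) bits, with an exact permutation p of 0.00466 and an adjusted p of 0.0210. At equal depth the means were 11.52 and 11.02 bits with an adjusted p of 0.0262 by exact permutation. With each sample left out in turn, the adjusted exact permutation p stayed between 0.0195 and 0.0455. Without both 1.5-month samples the difference was -0.40 bits, and without both 5-month samples -0.50 bits, and the adjusted exact permutation p rose to 0.109 and 0.0779.

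The clonotypes holding 50% of counts numbered 1094 and 901 at 1.5 months and 688, 794, 860 and 737 at 3 months. They numbered 479 and 628 at 5 months and 718, 736, 570, 433 and 361 at 7 months. Again 5 of 7 late samples lay below all early ones. The means were 845.7 ± 144 (SD, n = 6) and 560.7 ± 143 (SD, n = 7), with an exact permutation p of 0.00466 and an adjusted p of 0.0210, and at equal depth they were 844.1 and 560.3. Within the pools, the 1.5-month samples averaged 997.5 and the 3-month samples 769.75, while the 5- and 7-month samples averaged 553.5 and 563.6. Without both 1.5-month samples the difference between the pools was -209.0 and without both 5-month samples -282.1, with adjusted exact permutation p of 0.109 and 0.0779.

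The measures that weigh the largest clones most were more scattered among late samples. The inverse Simpson index was 884 to 1580 in early samples, with a median of 1123, and 246 to 1197 in late samples, with a median of 690. Its means were 1151 ± 265 (SD, n = 6) and 739 ± 385 (SD, n = 7), an exact permutation p of 0.0548 and an adjusted p of 0.0944. The 100 largest clonotypes held 14.99% to 22.95% of counts in early and 18.6% to 33.0% in late samples, with means of 18.6% ± 2.94 and 24.3% ± 5.83 and an adjusted p of 0.0944 by exact permutation. The Gini coefficient, in which 0 is an even repertoire, averaged 0.617 ± 0.0423 and 0.651 ± 0.0478, an exact permutation p of 0.212. The largest 10 held 4.45% to 7.32% in early and 5.19% to 14.5% in late samples, and the late samples 5 months replicate 1 and 7 months replicates 3, 4 and 5 exceeded all early ones.

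**Figure D1:**
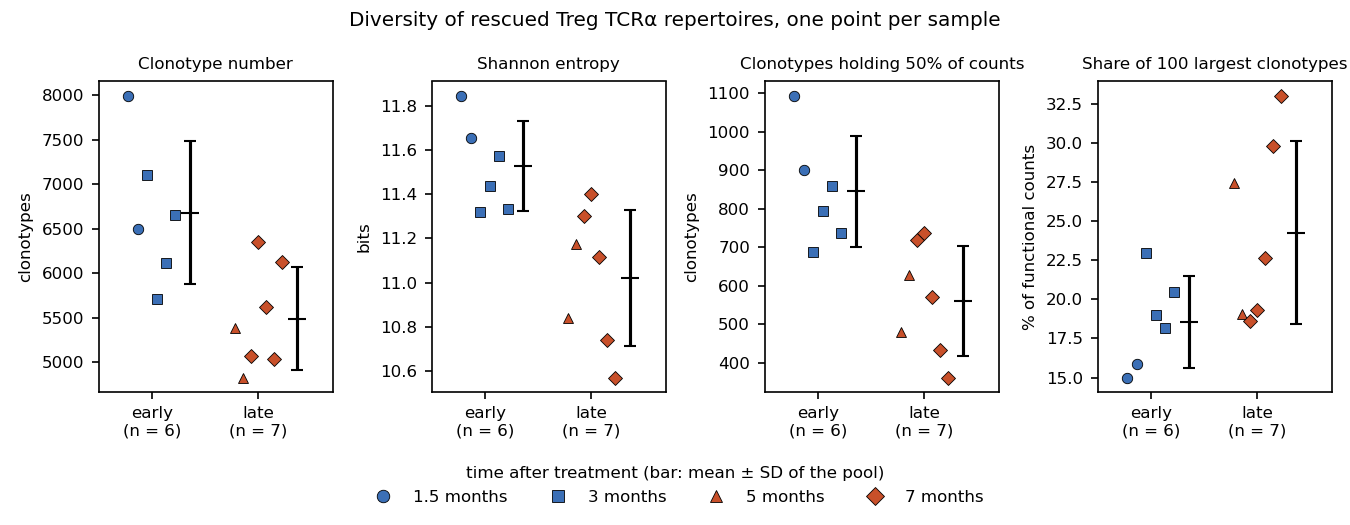
Clonotype number, Shannon entropy in bits, the number of clonotypes holding 50% of counts and the percentage of functional counts in the 100 largest clonotypes, with 1 point per sample, the pools on the x axis and bars for mean ± SD. Late samples reach down to 4828 clonotypes and 10.57 bits, and the share of the 100 largest runs from 18.6% to 33.0% among them. The y axes do not start at 0.

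The clone-size classes showed where in the size order the pools differed. Late samples had more clonotypes of intermediate size, each holding 0.1 to 1% of counts, and fewer clonotypes of 0.01 to 0.1%. These 2 of 10 clone-size measures passed the adjustment. Another 3 had an unadjusted exact permutation p under 0.05, namely the number of clonotypes of 0.001 to 0.01% and the counts held by the classes of 0.1 to 1% and 0.001 to 0.01%.

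Clonotypes of 0.1 to 1% numbered 53 and 78 at 1.5 months and 99, 83, 70 and 78 at 3 months. They numbered 114 and 115 at 5 months and 87, 93, 116, 105 and 112 at 7 months. The highest early sample, 3 months replicate 1, exceeded the late samples 7 months replicates 1 and 2, and the other late samples exceeded all early ones. The means were 76.8 ± 15.1 (SD, n = 6) and 106.0 ± 11.6 (SD, n = 7), an exact permutation p of 0.00466 and an adjusted p of 0.0233. Clonotypes of 0.01 to 0.1% numbered 2874 to 3331 in early samples, with a median of 3055, and 2244 to 2890 in late samples, with a median of 2585. Their means were 3060.5 ± 160 (SD, n = 6) and 2583 ± 235 (SD, n = 7), an exact permutation p of 0.00350 and an adjusted p of 0.0233. At equal depth the means of the first class were 76.3 and 105.7 and those of the second 3070 and 2592. With samples blocked by replicate number the differences were 28.17 and -420.5 clonotypes, with an adjusted exact permutation p of 0.104 for both. For both classes the adjusted exact permutation p was 0.0505 when 1.5 months replicate 1, 1.5 months replicate 2 or 3 months replicate 3 was left out, 0.121 without both 1.5-month samples, 0.0866 without both 5-month samples and 0.0952 without the 3 libraries that shared most CDR3s.

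Clonotypes of 0.001 to 0.01% numbered 1973 ± 370 (SD, n = 6) in early and 1516 ± 246 (SD, n = 7) in late samples, an exact permutation p of 0.0186 and an adjusted p of 0.0554. Those below 0.001% numbered 1570 ± 595 and 1282 ± 428, with an exact permutation p of 0.314. The class of 0.1 to 1% held 14.9% ± 4.57 of counts in early and 20.4% ± 2.86 in late samples, with an exact permutation p of 0.0221 and an adjusted p of 0.0554. The class of 0.01 to 0.1% held most of the counts in each sample, 66.1% to 74.8% in early and 54.1% to 75.6% in late samples.

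**Figure D2:**
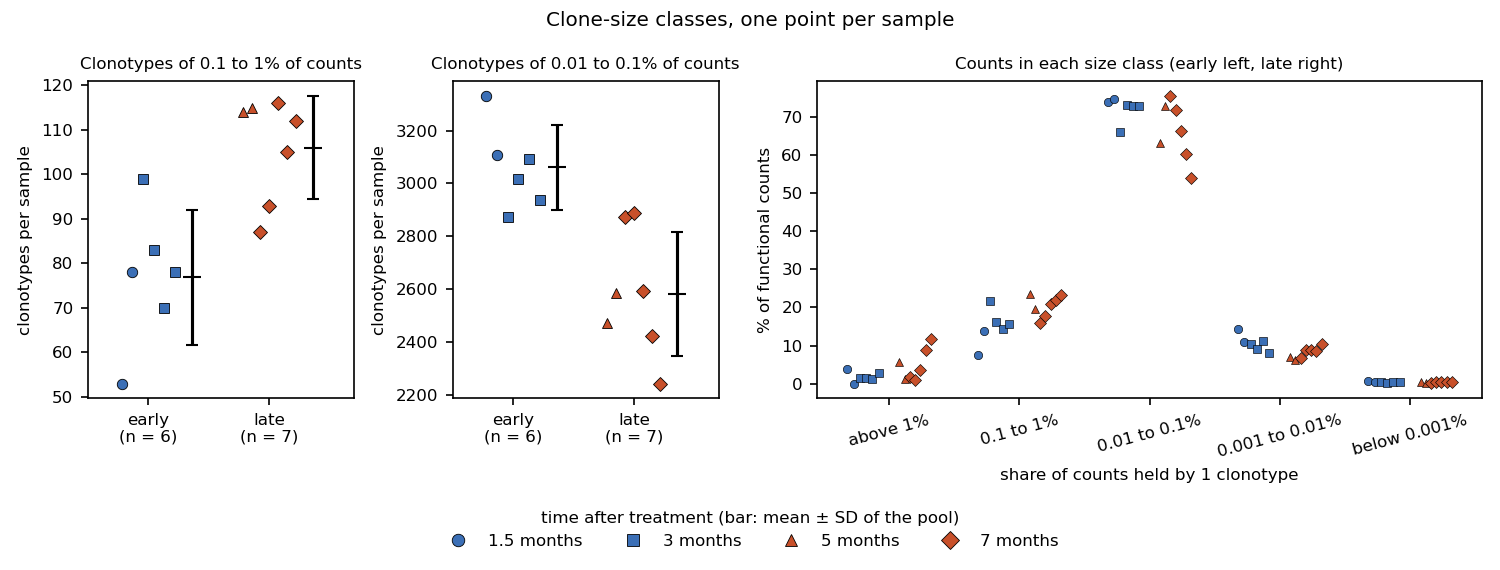
Number of clonotypes that each hold 0.1 to 1% or 0.01 to 0.1% of a sample's functional counts, with bars for mean ± SD, and the percentage of functional counts in each of 5 size classes, with 1 point per sample. The first class averages 76.8 clonotypes in early and 106.0 in late samples, and the second 3060.5 and 2583. The y axes of the first panels do not start at 0.

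Read along the ranks, the late mean share was above the early one at ranks 1 to 300 and below it at rank 3000. At rank 100 a clonotype held 0.0731% to 0.101% of counts in early and 0.0925% to 0.115% in late samples. At rank 300 it held 0.0439% to 0.0498% in early and 0.0510% to 0.0597% in late samples, so the pools did not overlap there. At rank 1000 the means were 0.0253% and 0.0255%. At rank 3000 a clonotype held 0.0106% ± 0.00059 (SD, n = 6) in early and 0.00820% ± 0.0012 (SD, n = 7) in late samples. These ranks describe the same repertoires as the diversity measures and were not tested.

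**Figure D3:**
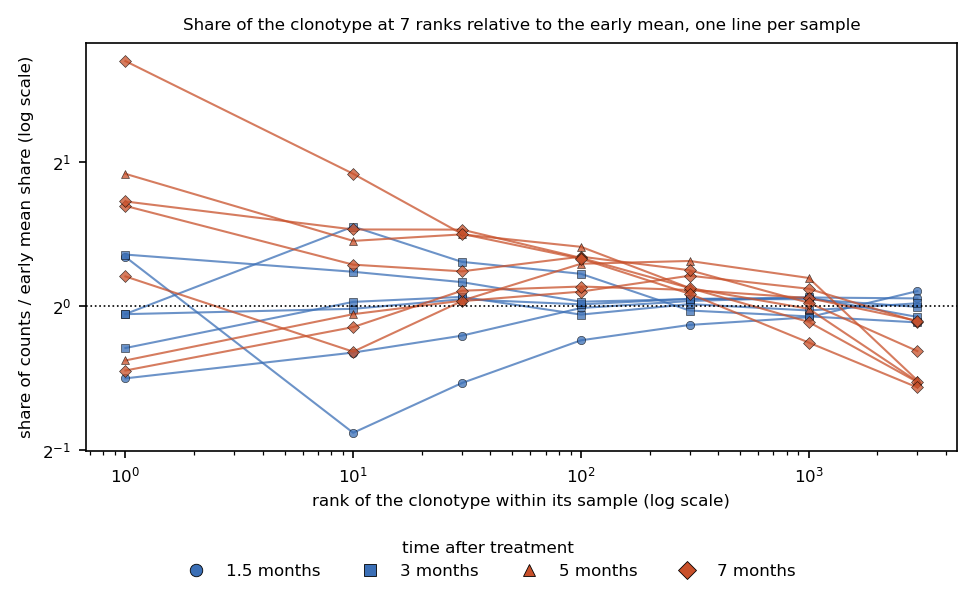
Share of counts of the clonotype at ranks 1, 10, 30, 100, 300, 1000 and 3000 divided by the early mean share at that rank, both axes on log scales, with 1 line per sample. Late lines lie at 1.22 times the early mean on average at rank 100, near 1 at rank 1000 and at 0.776 at rank 3000.

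Clonotypes above 1% of counts were few in both pools, 0 to 3 per early and 1 to 6 per late sample, or 8 and 19 in all. Their number per sample averaged 1.33 ± 1.03 (SD, n = 6) and 2.71 ± 2.06 (SD, n = 7), an exact permutation p of 0.240. The late ones used 9 V families and 14 J genes and the early ones 6 and 8. Of the late ones 6 of 19 and of the early ones 5 of 8 had no inserted base between V and J. Over all clonotypes, the mean share without an inserted base was 30.5% in early and 31.2% in late samples. Among the 19 late ones, 5 came from 7 months replicate 4 and 6 from 7 months replicate 5. Clonotypes above 1% held on average 1.75% ± 1.35 (SD, n = 6) of an early and 4.81% ± 4.17 (SD, n = 7) of a late sample's counts. That is a difference of 3.06 percentage points, with an exact permutation p of 0.115. In 7 months replicate 5 they held 11.7%, and without that sample the difference was 1.901 percentage points. Without 7 months replicate 5 the number of clonotypes above 1% differed by 0.833.

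The largest clonotype of each sample is shown where it exceeded 1% of counts, since these are the clones that set the top of the size order. Sequences are CDR3 nucleotides read 5′ to 3′ from the deposited tables, and capitals mark bases that the authors' aligner assigned to neither V nor J.
1.5 months replicate 1, TRAV3-3 with TRAJ23: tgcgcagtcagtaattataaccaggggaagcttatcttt
3 months replicate 1, TRAV14-3 with TRAJ42: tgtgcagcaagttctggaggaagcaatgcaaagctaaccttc
3 months replicate 2, TRAV12-2 with TRAJ43: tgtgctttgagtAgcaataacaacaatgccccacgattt
3 months replicate 3, TRAV7-4 with TRAJ17: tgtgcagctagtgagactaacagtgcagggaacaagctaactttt
3 months replicate 4, TRAV12-2 with TRAJ27: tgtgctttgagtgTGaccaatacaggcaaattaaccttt
5 months replicate 1, TRAV14N-3 with TRAJ39: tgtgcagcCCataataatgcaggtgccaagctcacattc
5 months replicate 2, TRAV4-3 with TRAJ23: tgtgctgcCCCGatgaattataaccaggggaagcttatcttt
7 months replicate 1, TRAV4N-4 with TRAJ17: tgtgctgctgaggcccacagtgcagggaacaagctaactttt
7 months replicate 2, TRAV7-6 with TRAJ58: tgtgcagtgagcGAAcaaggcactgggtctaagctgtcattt
7 months replicate 3, TRAV3-1 with TRAJ15: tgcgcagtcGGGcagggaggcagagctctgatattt
7 months replicate 4, TRAV4-4-DV10 with TRAJ40: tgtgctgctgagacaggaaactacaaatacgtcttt
7 months replicate 5, TRAV15-2-DV6-2 with TRAJ37: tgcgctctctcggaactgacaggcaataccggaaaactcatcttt

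No V-J combination recurred among these 12 clonotypes, and none is the largest of more than 1 sample. The largest of 7 months replicate 5 held 4.59% of its counts (exact binomial 95% interval 4.54% to 4.65%), that of 5 months replicate 1 held 2.67%, and those of 7 months replicates 4 and 3 held 2.33% and 2.28%. The early ones ran from 0.995% in 1.5 months replicate 2, not shown, to 1.81% in 3 months replicate 4. The TRAV4-4-DV10 clonotype, without inserted bases, was also found in 7 other samples, at 1.01% of counts in 1.5 months replicate 1 and at 0.0893% in 7 months replicate 2. TRAV4-4-DV10 lies at chr14:53683647-53684177 and TRAJ40 at chr14:54177921-54177981 in GRCm38. The clonotypes of 3 months replicate 3 and of 7 months replicates 1 and 3 were found in no other sample.

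V segments were next compared as the share of a sample's clonotypes, each counted once, so that clone size does not enter. None of the 19 V families tested passed the adjustment, a share called of 0%, and 1 family or 5.26% had an unadjusted exact permutation p under 0.05. That unadjusted count rested on single samples: it was 4 without 3 months replicate 3 and 0 without either 1.5-month replicate, 3 months replicate 2 or 4, 5 months replicate 2 or 7 months replicate 1 or 2. In all samples that family was TRAV16, with 2.15% to 2.79% of clonotypes in early and 2.34% to 2.83% in late samples. Its means were 2.45% ± 0.204 (SD, n = 6) and 2.68% ± 0.160 (SD, n = 7), an exact permutation p of 0.0443 and an adjusted p of 0.509. The next smallest were TRAV15, at 1.28% ± 0.101 and 1.05% ± 0.238, and TRAV10, at 2.12% ± 0.326 and 2.38% ± 0.220, with exact permutation p of 0.0536 and 0.114.

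The most used families had close means in both pools. TRAV7 made up 18.8% ± 0.722 (SD, n = 6) of early and 18.9% ± 0.743 (SD, n = 7) of late clonotypes, with an exact permutation p of 0.886. TRAV14 made up 14.96% ± 0.483 and 15.06% ± 0.470, and TRAV12 11.7% ± 0.391 and 11.3% ± 0.512. The TRAV7 family has 12 annotated genes, spread over chr14:52654817-53717291 in GRCm38.

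When the counts of each family were summed in place of its clonotypes, TRAV7 was lower in all late samples than in any early one. It held 18.8% and 19.4% of counts at 1.5 months and 20.6%, 19.4%, 20.6% and 18.9% at 3 months. It held 18.1% and 15.5% at 5 months and 18.0%, 18.5%, 17.6%, 17.8% and 14.9% at 7 months. The means were 19.6% ± 0.811 (SD, n = 6) and 17.2% ± 1.42 (SD, n = 7), a difference of -2.42 percentage points. The exact permutation p was 0.00117, the smallest that 1716 arrangements can give, and the adjusted p was 0.0221. It was the only call among 19 families by summed counts, 5.26% of them. No single V gene, J gene or V-J pair was called that way after adjustment, while 4, 2 and 10 had an unadjusted exact permutation p under 0.05. With 85 V genes, 43 J genes and 197 pairs, 1 segment or pair alone could reach an adjusted p of no less than 0.0991, 0.0501 and 0.230, so these counts of 0 cannot be set against the family call.

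A TRAV7 clonotype thus carried 1.05 ± 0.0648 (SD, n = 6) times the mean counts of all clonotypes in early and 0.913 ± 0.0632 (SD, n = 7) times in late samples. Among clonotypes above 0.1% of counts, TRAV7 made up 16.7% to 28.6% in early and 12.1% to 21.8% in late samples, TRAV14 14.3% to 28.75% and 15.3% to 21.3%, and TRAV12 5.36% to 15.5% and 7.95% to 28.4%. The means of TRAV7 were 22.9% and 16.8% and those of TRAV14 20.7% and 17.5%, so the lower late mean was not particular to TRAV7, and neither was tested. Its genes were examined because the family's share of counts was lower. Of the 12 TRAV7 genes, 8 had a lower mean share of counts in late samples, beside 47 of all 85 V genes tested (55.3%), and by clonotypes 6 were lower and 6 higher. The 12 include TRAV7-2 and TRAV7D-4, which averaged 5.23 and 0.769 clonotypes per sample and are not among the 85. By counts TRAV7-2 was higher and TRAV7D-4 lower in late samples, by 0.0169 and 0.0199 percentage points. The largest difference by counts was in TRAV7D-2, at 7.26% ± 0.937 and 5.82% ± 1.27. TRAV7D-2 has near-identical copies in the locus, so reads may be split between them. Leaving out 1 sample at a time gave differences in the TRAV7 share of counts of -2.64 to -2.03 percentage points. Since the pools do not overlap, the adjusted exact permutation p was then the smallest those designs allow, 0.0411 without a late and 0.0480 without an early sample, and says nothing about stability. Without the 100 largest clonotypes of each sample the difference was -0.99 percentage points, with an exact permutation p of 0.0956, an alternative chosen after the result was seen. The difference was -2.69 percentage points without both 1.5-month samples, -2.26 without both 5-month samples and -2.95 without the 3 libraries that shared most CDR3s. The adjusted exact permutation p of 0.115, 0.0823 and 0.181 ended the call, but each is the smallest that 19 families and the remaining samples allow for 1 family alone.

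Among 85 single V genes none passed the adjustment, and 2 or 2.35% had an unadjusted exact permutation p under 0.05. The unadjusted count was 5 without 3 months replicate 3, 4 without 7 months replicate 2 or 5, and 1 without 3 months replicate 1, 2 or 4 or 7 months replicate 4. TRAV12-2, at chr14:53616315-53616914, was lower in late samples, with 2.08% to 2.65% of early and 1.58% to 2.27% of late clonotypes. The means were 2.40% ± 0.199 (SD, n = 6) and 2.00% ± 0.238 (SD, n = 7), and 5 of 7 late samples lay below every early one, with an exact permutation p of 0.00699 and an adjusted p of 0.594. TRAV3D-3, at chr14:52972448-52973038, averaged 2.69% ± 0.167 and 2.89% ± 0.138, an exact permutation p of 0.0420. TRAV14D-3-DV8, at chr14:53078452-53079045, averaged 1.83% ± 0.119 and 2.07% ± 0.250, and 6 of 7 late samples lay above every early one, with an exact permutation p of 0.0548. The most used genes, TRAV7D-2, TRAV7-4 and TRAV14D-1, averaged 5.19%, 5.20% and 4.94% of early and 5.13%, 5.03% and 4.56% of late clonotypes.

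None of 43 J genes passed the adjustment, and 2 or 4.65% had an unadjusted exact permutation p under 0.05, both with lower late means. Of J genes, 4 had such a p without 7 months replicate 5, and 1 without 3 months replicate 2 or 7 months replicate 2. TRAJ22, at chr14:54197248-54197307, made up 3.89% to 4.68% of early and 3.60% to 4.18% of late clonotypes. Its means were 4.20% ± 0.285 (SD, n = 6) and 3.84% ± 0.192 (SD, n = 7), an exact permutation p of 0.0186 and an adjusted p of 0.601. TRAJ21, at chr14:54198790-54198846, made up 5.64% ± 0.252 and 5.25% ± 0.285, an exact permutation p of 0.0280. TRAJ27 made up 3.85% ± 0.174 and 4.10% ± 0.278, an exact permutation p of 0.0828. The most used J genes besides TRAJ21 were TRAJ15, at 5.79% ± 0.844 and 5.62% ± 0.308, and TRAJ31, at 5.33% ± 0.181 and 5.51% ± 0.285.

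**Figure D4:**
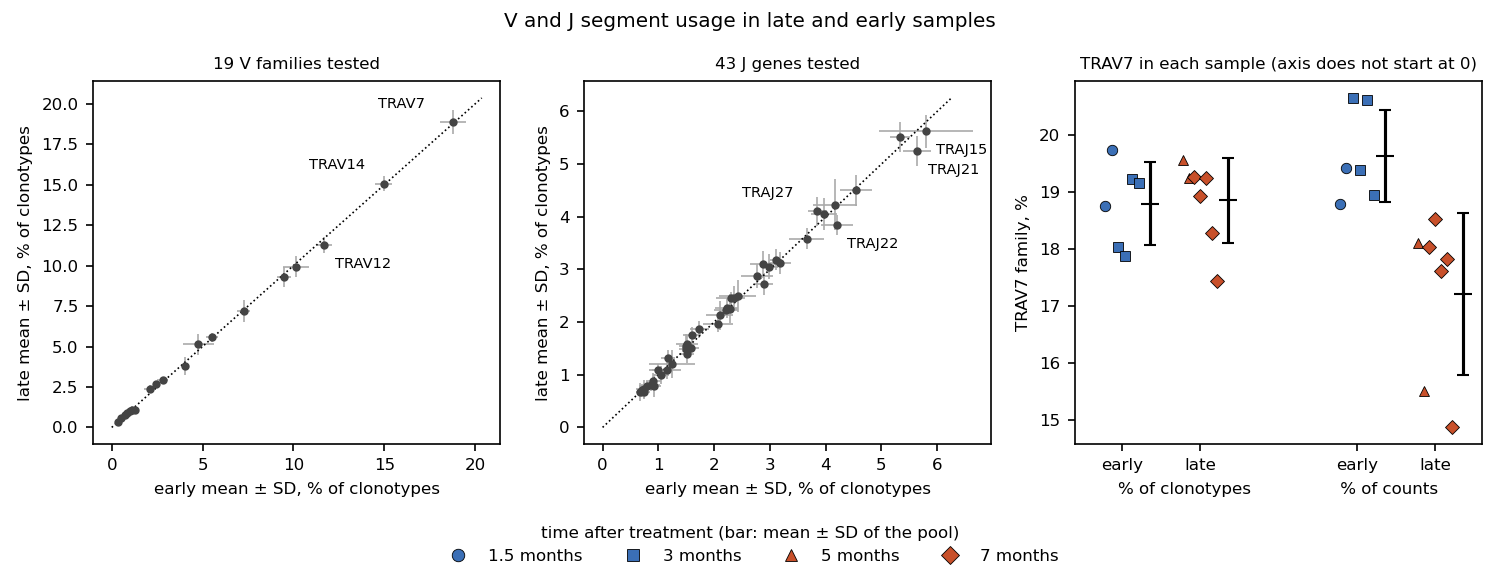
Late against early mean share of clonotypes for 19 V families and 43 J genes, with bars for the SD of each pool and a dotted line of equality, and the TRAV7 share of clonotypes and of counts in each sample with bars for mean ± SD. TRAV7 averages 18.8% and 18.9% of clonotypes and 19.6% and 17.2% of counts in early and late samples.

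The order of J and V segments along the locus bears on how late in thymic development a rearrangement was made, since successive rearrangements use V and J segments ever further apart. The mean TRAJ number was 27.64 ± 0.25 (SD, n = 6) in early and 27.52 ± 0.38 (SD, n = 7) in late samples, an exact permutation p of 0.503. The J-proximal families TRAV17 to TRAV21 held 2.99% ± 0.197 and 3.08% ± 0.350 of clonotypes, and the dual-use TRAV/DV genes, which can also join δ segments, held 10.8% ± 0.449 and 11.1% ± 0.538. None of the 7 measures of segment position had an unadjusted exact permutation p under 0.05, and the smallest was 0.290.

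Pairs of V family and J gene numbered 783, of which 197 averaged at least 10 clonotypes per sample and were tested. None passed the adjustment, 0% of them, and 10 or 5.08% had an unadjusted exact permutation p under 0.05, 5 with a higher and 5 with a lower late mean. Leaving out 1 sample gave 4 to 9 such pairs, with 4 without 3 months replicate 1 or 4 and 6 without 1.5 months replicate 1. TRAV7/TRAJ30 made up 0.689% to 0.858% of early and 0.476% to 0.798% of late clonotypes, and 6 of 7 late samples lay below all early ones. Its means were 0.768% ± 0.0557 (SD, n = 6) and 0.605% ± 0.110 (SD, n = 7), an exact permutation p of 0.00932 and an adjusted p of 0.865. TRAV5/TRAJ21 averaged 0.267% ± 0.0507 and 0.166% ± 0.0655, and TRAV6/TRAJ43 0.180% ± 0.0543 and 0.255% ± 0.0496, with exact permutation p of 0.0117 and 0.0303. The most used pairs, TRAV7/TRAJ15, TRAV7/TRAJ21 and TRAV7/TRAJ31, averaged 1.22%, 0.983% and 0.997% of early and 1.33%, 1.04% and 1.02% of late clonotypes.

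The smallest exact permutation p that the 7 against 6 design allows, 0.00117, cannot pass an adjustment over 85 V genes, 43 J genes or 197 pairs when 1 feature alone reaches it, so count models were run beside it. edgeR and DESeq2, on numbers of clonotypes per segment, also called 0 families, V genes, J genes and pairs after adjustment. At an unadjusted p under 0.05, edgeR called 1 of 19 families, 1 of 85 V genes, 1 of 43 J genes and 9 of 197 pairs. DESeq2 called 1, 2, 0 and 2 of them. The family was TRAV15 in both models, with an unadjusted p of 0.0205 by edgeR and 0.0185 by DESeq2. TRAV16, the family under 0.05 by exact permutation, had 0.136 by edgeR and 0.155 by DESeq2.

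CDR3 length and composition had close means in the pools. Counting each clonotype once, the mean length was 13.50 ± 0.030 residues (SD, n = 6) in early and 13.49 ± 0.017 (SD, n = 7) in late samples, an exact permutation p of 0.501. CDR3s of 16 residues or more made up 5.96% ± 0.243 and 5.57% ± 0.570. Clonotypes without an inserted base made up 30.5% ± 1.14 and 31.2% ± 0.698, with an exact permutation p of 0.171. None of the 12 CDR3 measures passed the adjustment, and 1, the mean hydropathy, had an unadjusted exact permutation p under 0.05.

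Hydropathy was averaged on the Kyte-Doolittle scale over the CDR3 without its first 3 and last 3 residues, and lower values are more hydrophilic. It was -1.48 to -1.47 in early and -1.51 to -1.47 in late samples, and 5 of 7 late samples lay below every early one. The means were -1.478 ± 0.0023 (SD, n = 6) and -1.488 ± 0.011 (SD, n = 7), an exact permutation p of 0.0186 and an adjusted p of 0.224. The number of nucleotide clonotypes per CDR3 amino-acid sequence, a measure of how often different junctions encode the same CDR3, averaged 1.138 ± 0.017 and 1.123 ± 0.0059, an exact permutation p of 0.0571.

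Of the 20 amino acids in that middle stretch, 0% passed the adjustment and 2, or 10%, had an unadjusted exact permutation p under 0.05. Aspartate made up 2.72% to 2.78% of residues in early and 2.75% to 3.04% in late samples, and 5 of 7 late samples exceeded all early ones. Its means were 2.76% ± 0.0239 (SD, n = 6) and 2.88% ± 0.109 (SD, n = 7), an exact permutation p of 0.0140 and an adjusted p of 0.186. Tryptophan made up 0.879% ± 0.0543 and 0.806% ± 0.0357, an exact permutation p of 0.0186 and the same adjusted p. Leucine, the next, made up 1.55% ± 0.0401 and 1.50% ± 0.0534. The most frequent residues, glycine, serine and asparagine, made up 18.9%, 14.7% and 14.5% of early and 18.9%, 14.7% and 14.6% of late residues.

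Early samples shared more CDR3 amino-acid sequences with each other on average than late samples did, and early-late pairs lay between, a description with no test. The Jaccard index averaged 10.3% over 15 early pairs, 9.06% over 21 late pairs and 9.57% over 42 early-late pairs. Both kinds of same-pool pair averaged together differed from early-late pairs by -0.0030 percentage points, with an exact permutation p of 0.997. On average, early pairs lay above and late pairs below the early-late mean, so they cancel in that difference. Single early pairs went down to 9.12% and single late pairs up to 9.72%. The difference therefore does not show that overlap was alike within and between pools. The libraries that stood apart in this measure were named above. Without those 3 libraries the overlap difference was -0.043 percentage points, an exact permutation p of 0.771. Without both 5-month samples the overlap difference turned to 0.40 percentage points, with an exact permutation p of 0.0390 that was not adjusted for the alternatives tried. Without 5 months replicate 1 alone it was 0.28, an exact permutation p of 0.113, and without 5 months replicate 2 alone 0.069, a p of 0.684. Leaving out 5 months replicate 1 drops the early-late pair at 15.04% and keeps the early pair at 14.98%.

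**Figure D5:**
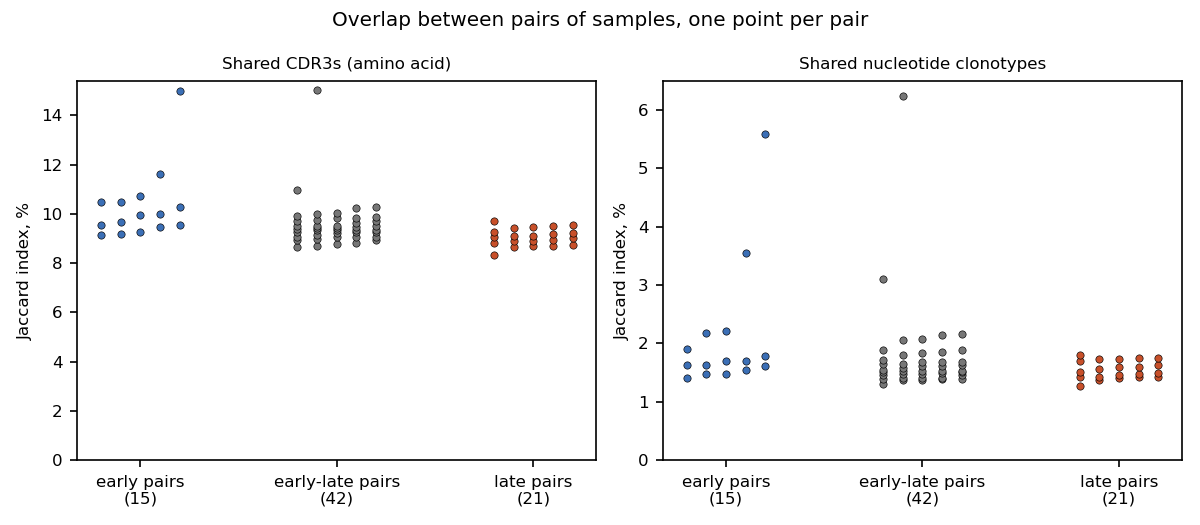
Jaccard index in percent for each pair of samples, by kind of pair on the x axis, for CDR3 amino-acid sequences and for nucleotide clonotypes, with 1 point per pair. Late pairs lie between 8.34% and 9.72% for CDR3 amino-acid sequences, and 1 early pair reaches 14.98% and 1 early-late pair 15.04%. Pairs share samples and are not independent.

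Over all samples 41501 distinct CDR3 amino-acid sequences were found, of which 29521 occurred in 1 sample, 8548 in both pools and 65 in all 13 samples. The 339 found in at least 10 samples were compared by their log2 share of counts. None of the 339 passed the adjustment, 0%, and 16 or 4.72% had an unadjusted exact permutation p under 0.05, 6 with higher and 10 with lower late means. A single CDR3 among 339 could reach an adjusted p of no less than 0.395, and no count model was run for them, so the count of 0 was nearly fixed by the design. Together the 339 held 12.7% to 15.8% of counts in early and 11.9% to 14.7% in late samples, with means of 14.0% ± 1.30 (SD, n = 6) and 13.2% ± 1.21 (SD, n = 7) and an exact permutation p of 0.282. Of the 339, 281 to 318 were present in early and 276 to 296 in late samples, with means of 299.8 ± 12.8 (SD, n = 6) and 286.7 ± 6.68 (SD, n = 7), an exact permutation p of 0.0431 and an adjusted p of 0.0862 over 4 measures of sharing. As a share of all CDR3s of a sample they went the other way, at 5.14% ± 0.400 and 5.91% ± 0.531, an exact permutation p of 0.0198 and an adjusted p of 0.0793. Choosing them for presence in at least 10 samples narrows their number per sample, and the share has the lower late number of CDR3s as its denominator, so it is not a separate result.

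The 3 shared CDR3s with the smallest p all used TRAJ31. None of these 3 passed the adjustment. On average the TRAV6 CDR3 was lower and the TRAV9 and TRAV12 CDR3s were higher in late samples. How many of the other shared CDR3s use TRAJ31 is not given here, so the common J segment is not a result. The most abundant nucleotide sequences of these 3 CDR3s are shown because they end in the same J segment, with inserted bases in capitals.
TRAV6 with TRAJ31: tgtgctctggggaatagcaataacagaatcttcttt
TRAV9 with TRAJ31: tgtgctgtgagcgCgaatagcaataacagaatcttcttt
TRAV12 with TRAJ31: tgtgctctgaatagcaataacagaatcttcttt

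The TRAV6 CDR3 was present in 6 of 6 early and 4 of 7 late samples, at 0.0212% to 0.0609% of counts in early samples and 0.0222% at most in late ones, with an exact permutation p of 0.00233 and an adjusted p of 0.716. The TRAV9 CDR3 was present in all 13 samples, at 0.000176% to 0.00952% of early and 0.00671% to 0.0473% of late counts, with an exact permutation p of 0.00699. The TRAV12 CDR3 was present in 4 of 6 early and 7 of 7 late samples, at mean shares of 0.00713% and 0.0382%, with an exact permutation p of 0.00816. The most abundant shared CDR3, of TRAV4 with TRAJ12, held 0.118% to 0.930% of early counts and 0.0897% to 2.04% of late counts, so the pools overlapped over the whole early range. The next, of TRAV14 with TRAJ22, lay at 0.204% to 0.297% of early and 0.173% to 0.303% of late counts. Another CDR3 of TRAV4 with TRAJ12 held 0.0385% to 0.522% of early and 0.0190% to 1.32% of late counts.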

How the data were processed

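TCRα transcripts of rescued Treg cells sorted from 13 samples were amplified by 5′ RACE, with a random barcode on each cDNA molecule, and sequenced on an Illumina MiSeq. The libraries were mixed in equal amounts before sequencing. The authors aligned reads and assembled clonotypes with MiXCR and removed likely sequencing errors with VDJtools, by dropping clonotypes within 2 mismatches of a much larger one. The genome build in the submitters' processing notes is GRCm38. The deposited tables give a raw count per clonotype, and whether it counts reads or molecules is not given in the sources used here. They also give the authors' share of each clonotype as a fraction, which was used only to check the counts. The tables still held clonotypes with a stop codon or frameshift, and these were removed here. All columns of values mapped to a sample.

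Python 3.11.15 (numpy 2.4.6, pandas 2.3.3, scipy 1.17.1) computed all measures. Late and early means were compared by exact permutation of the labels over 1716 arrangements, two-sided, with Benjamini-Hochberg adjustment within each family of measures and a threshold of 0.05. Segments and pairs were tested when they averaged at least 10 clonotypes per sample. Shared CDR3s were compared as log2 share with 0.5 counts added. R 4.3.3 ran edgeR 4.0.16 (TMM, quasi-likelihood) and DESeq2 1.42.0 on clonotype numbers as alternatives. Both were also run on simulated data, but that outcome is not given here, so their counts of 0 do not measure power. Sizes of single clones carry an exact binomial 95% interval, and a count of 0 allows up to 3 counts, 3.40e-04% to 6.29e-04% of a sample. Both cover counting error only. Inserted bases were those between the aligner's V and J boundaries, which allow mismatches, and 62.8% of V ends and 69.7% of J ends matched an annotated transcript exactly. Positions came from the GENCODE vM21 annotation of GRCm38, in which 154 of 163 V and J names were found. Equal depth was the mean of 10 draws. Alternatives covered depth, count minimums, clonotype definition, weighting, segment tools, removal of clonotypes with a 100 times larger copy in another library, and samples left out.

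Per kind of segment, pair, residue or shared CDR3, the text names those passing the adjustment, or else the 3 with the smallest p, and the 3 most used. For clonotypes it names the largest of each sample. TRAV7 by counts and the TRAV7 genes were added after their values were seen. The pools, measures and lists were chosen with earlier results of these data known.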

Additional observations from a re-analysis of the deposited data

Results flagged for a closer look

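Of 118 groups of values, each a measure within 1 pool, 4 held a sample whose gap to its nearest neighbour was large for the pool's range, and chance gives about 1 in 20. In 3 months replicate 1 the clonotypes of 0.01 to 0.1% held 66.1% of counts, below the other early samples, which lay between 72.8% and 74.8%. In 5 months replicate 1, CDR3s of 11 residues or fewer made up 6.05% of clonotypes, against 5.23% to 5.53% in the other late samples. In 7 months replicate 1 there were 1.135 nucleotide clonotypes per CDR3, against 1.116 to 1.123 in the other late samples. In 7 months replicate 2 tryptophan made up 0.731% of residues in the middle of the CDR3, against 0.803% to 0.838% in the other late samples.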

How the results depend on the processing

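Over 38 alternative settings, of which 13 left out 1 sample each, 1301 of 1416 differences kept their direction and their side of the threshold. Most of these were not called in the main comparison, so staying uncalled counts as kept. Among the called ones, clonotype number kept its call in 10 of 24 alternatives. Shannon entropy and the clonotypes holding 50% of counts each kept it in 20 of 24, and each of the 2 clone-size classes in 17 of 24. Of 360 counts of calls, 302 stayed within 1.5 times the main count, which does not mean that they were equal. The causes of the other changes were not tested. The diversity measures called were 3, and 2 at equal depth and in 9 of the 13 settings that left out 1 sample. For clonotype number the difference of late minus early was -987.5 at equal depth, -1298 with the replicate block, -908.6 without the 1.5-month samples, -1039 without the 5-month samples, -851.6 without the 3 libraries that shared most, and -1386 to -928.3 leaving out 1 sample. With the block, without the 1.5-month samples, without the 5-month samples and without the 3 libraries, Shannon entropy differed by -0.432, -0.3955, -0.5017 and -0.4456 bits, the clonotypes holding 50% of counts by -251.7, -209, -282.1 and -236.4, clonotypes of 0.1 to 1% by 28.17, 23.5, 25.77 and 22.17 and clonotypes of 0.01 to 0.1% by -420.5, -397.3, -455.5 and -421.6. Leaving out 1 sample gave 24.4 to 33.6 and -528.2 to -420.5 for both classes of clonotypes. In each of these 4 settings 0 diversity and 0 clone-size measures were called by exact permutation, and with a minimum of 10 counts, chosen after seeing the data, 5 clone-size measures and 1 CDR3 measure were, against 4 clone-size measures on the log2 scale and 0 to 4 leaving out 1 sample. Same-pool minus early-late overlap was 0.01404 by nucleotide clonotypes, 0.009996 after removing clonotypes with a 100 times larger copy elsewhere, 0.01076 over the 2000 largest, 0.401 without the 5-month samples and -0.2406 to 0.2802 leaving out 1 sample.

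Small differences changed sign. With summed counts, 1 V family was called, and the differences in percentage points were -2.419 for TRAV7, -0.5128 for TRAV14, 0.2375 for TRAV15, 1.057 for TRAV12, -0.3299 for TRAJ27 and -0.2283 for TRAV7/TRAJ15. Weighting by counts gave 0.01823 residues for mean CDR3 length, -0.7244 for no inserted bases, 0.09599 for residue L and -0.02478 for residue S. Without the 1.5-month samples the differences were -0.04166 for residue G, -0.02472 for residue S, 0.1233 for TRAV7-4 and -0.009735 for TRAV7/TRAJ31. Without the 5-month samples they were -0.01154 for residue S, 0.01823 for mean TRAJ number, -0.1627 for TRAV7 and -0.01806 for TRAV7/TRAJ31. Without the 3 libraries they were 0.01978 for counts in clonotypes below 0.001%, 0.009053 for mean CDR3 length and -0.008768 for TRAV7/TRAJ31. Residue S was -0.01556 at equal depth. On the log2 scale of the count models TRAV7 was -0.01908 by edgeR and -0.01133 by DESeq2, and TRAV14 -0.01335 and -0.005667. TRAV7D-2 was 0.006245 with a minimum of 2 counts, 0.08139 with the replicate block and 0.02076 with the block in edgeR. Leaving out 1 sample gave -0.1259 to 0.2922 for TRAV7, -0.03515 to 0.2172 for TRAV14, -0.1968 to 0.08139 for TRAV7D-2, -0.3913 to 0.08109 for TRAJ15, -0.01999 to 0.055 for TRAV7/TRAJ31, -0.03912 to 0.07139 for residue S, -0.3019 to 0.05601 for CDR3s of 11 residues or fewer and -0.01537 to 7.533e-06 for mean CDR3 length.

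The labels do not say that a replicate number marks shared animals or a shared day, so the samples were not treated as paired. Over 14 pairs with the same number the deviations from the time-point means correlated at 0.0640 on average, from -0.104 to 0.355, and 5 exceeded 0.1. Over 46 pairs with other numbers they correlated at -0.0196 on average, up to 0.267, and 8 exceeded 0.1. These values do not settle whether same-numbered samples belong together. With the block, 144 arrangements allow no exact p below 0.0139. The TRAV7 share of counts differed by -2.03 percentage points with the block, with an adjusted exact permutation p of 0.264, the smallest the block allows for 1 of 19 families alone. The rarest clonotypes depend on depth, which was lower in the late samples.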
